A study of Drosophila melanogaster with 3 samples.

Results

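The 10 genes described are the large molecular chaperones of Drosophila melanogaster that are named in the deposited expression table as Hsc70-1 to Hsc70-5, Hsp68, Hsp70Aa, Hsp70Ab, Hsp83 and Hsp60A. They were taken by gene name, not by level, and all 10 were found among the 17611 genes listed. The samples were 3 libraries of wing imaginal discs, the larval tissue from which the wing and upper thorax of the adult fly develop, all of 1 group. Per the labels, the larvae had the genotype w;apGAL4/+, also called wild type there, which is 1 copy of the GAL4 driver of the apterous gene (active in the dorsal compartment) with no target transgene named. The larvae were reared at 25 °C until they wandered, roughly day 5 from egg laying, and each library pooled 100 to 120 discs that had been dissected for 20 min. No heat-treated or untreated control group is part of the analysis, so comparisons are between genes within libraries, with the spread between libraries as the error.

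Chaperones of the Hsp70 family bind unfolded stretches of other proteins and release them in a cycle driven by ATP, helped by J-domain proteins that deliver clients and by exchange factors that reload ATP. Flies carry constitutive members, the Hsc70 cognates, which serve the cytosol, the endoplasmic reticulum (ER) and the mitochondria, and inducible members, Hsp70 and Hsp68, whose transcription is switched on by the heat shock factor Hsf. Hsp83 is the fly Hsp90, which matures kinases and hormone receptors, and Hsp60A is a mitochondrial chaperonin, a barrel in which proteins fold.

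Values are FPKM, fragments per kilobase of exon scaled to library size, so levels of different genes can be compared. The 3 libraries held 24873808 to 26264315 reads or read pairs, as recovered from the deposited values for genes whose values came out as whole reads. All 9 wing disc markers (vg, sd, nub, ap, wg, dpp, hh, en and rn) stood at 1 FPKM or more in every library, with summed levels of 426, 413 and 420 FPKM in libraries 1, 2 and 3. Genes of other tissues differed between the libraries. The 5 salivary gland glue genes summed to 126, 806 and 287 FPKM, the 5 gut protease genes to 6.87, 876 and 391 FPKM, and the 5 fat body genes to 413, 677 and 1500 FPKM in libraries 1, 2 and 3. No library was a copy of another: between any 2 of them the chi-square of the read counts was 16.8 to 26.3 times its degrees of freedom, over 10415 to 10424 genes. The labels do not say whether the discs came from separate cultures, so the spread may be partly technical.

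The large chaperones spanned more than 4 powers of 10 in level, with the cytosolic pair Hsc70-4 and Hsp83 at the top. Hsp68 and the Hsp70 genes lay well below, as did the cognates Hsc70-1 and Hsc70-2. In order of mean level they were Hsc70-4, Hsp83, Hsc70-3, Hsp60A, Hsc70-5, Hsp68, Hsp70Ab, Hsc70-2, Hsp70Aa and Hsc70-1. The first 7 stood at 1 FPKM or more in every library, as did 42.9% of all listed genes. The same 7 lay above 1 FPKM by a one-sided limma test on log2(FPKM + 0.1), adjusted over 13909 genes, of which 53.4% were called. Their adjusted limma p-values lay between 3.87e-06 for the highest genes and 0.000696 for Hsp68. The other 3 genes stayed under 0.4 FPKM in every library. Together the 10 genes took 1.08% ± 0.0223 of the recovered reads (SD, n = 3).

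**Figure D1:**
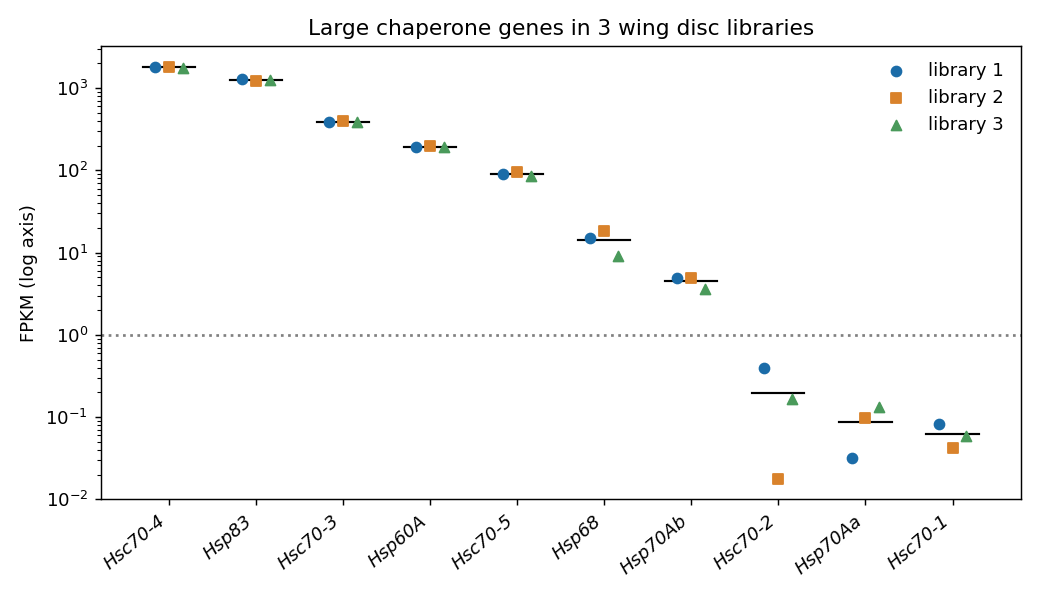
Level of each of the 10 large chaperone genes in FPKM (log axis), with 1 symbol per library and a bar at the mean of 3 libraries. The dotted line marks 1 FPKM: 7 genes lie above it in every library, and Hsc70-2, Hsp70Aa and Hsc70-1 lie below it in every library.

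Hsc70-4 and Hsp83, the cytosolic Hsp70 cognate and Hsp90, dominated the group. Hsc70-4 stood at 1826, 1793 and 1751 FPKM in libraries 1, 2 and 3. Its mean of 1790 ± 37.6 FPKM (SD, n = 3) ranked 53rd of 17611 genes. Hsp83 stood at 1272, 1224 and 1251 FPKM, a mean of 1249 ± 24.0 FPKM that ranked 86th. The values of both genes lay close together and did not overlap between the genes. Hsc70-4 exceeded Hsp83 by a log2 ratio of 0.52 ± 0.03 within libraries, that is, by 1.40-fold to 1.46-fold. An exact two-sided sign-flip permutation test of 3 libraries cannot give a p below 0.25, and it gave 0.25 for each ratio given here that kept its sign in 3 of 3 libraries. Hsc70-4 and Hsp83 together made up 81.4% ± 0.486 of the summed FPKM of the 10 genes (SD, n = 3).

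The chaperones of the organelles formed a middle tier. Hsc70-3, the ER member also known as BiP, stood at 390, 397 and 382 FPKM, a mean of 389.9 ± 7.79 FPKM (SD, n = 3). Hsp60A stood at 193, 197 and 191 FPKM, a mean of 194 ± 3.34 FPKM. Hsc70-5, the mitochondrial cognate (mortalin), stood at 91.2, 95.7 and 85.3 FPKM, a mean of 90.7 ± 5.22 FPKM. The 3 genes did not overlap, and library 3 was the lowest for each of them, as it was for Hsc70-4. Hsc70-4 exceeded Hsc70-3 by a log2 ratio of 2.20 ± 0.03 and Hsc70-5 by 4.30 ± 0.07. Within the mitochondrial pair, Hsc70-5 lay under Hsp60A with a log2 ratio of -1.09 ± 0.06, and Hsc70-3 exceeded Hsp60A by 1.01 ± 0.01, a ratio of means of 2.01.

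The inducible members were expressed at a low level in these discs. Hsp68, a heat-inducible relative of Hsp70, stood at 14.8, 18.5 and 9.14 FPKM in libraries 1, 2 and 3, from 881, 1069 and 510 recovered reads. Hsp70Ab, 1 of the copies of the main heat-inducible gene, stood at 4.95, 4.91 and 3.65 FPKM, from 313, 303 and 217 reads. Hsp70Aa, its neighbour, stood at 0.0315, 0.0970 and 0.134 FPKM, from 2, 6 and 8 reads. No value of Hsp68 overlapped with Hsp70Ab, and none of Hsp70Ab with Hsp70Aa. Hsp68 lay under Hsc70-4 with a log2 ratio of -7.03 ± 0.49 and above Hsp70Ab with 1.58 ± 0.29, while Hsp70Ab lay under Hsc70-4 with -8.62 ± 0.22 (SD, n = 3 each). Summed over genes, the Hsc70 cognates reached 2308, 2286 and 2218 FPKM, against 19.8, 23.5 and 12.9 FPKM for Hsp68, Hsp70Aa and Hsp70Ab. The ratio of these sums was 97.4 to 172 in the 3 libraries (log2 ratio 6.96 ± 0.41), and the inducible genes contributed 0.501% ± 0.140 to the FPKM sum of the 10 genes.

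Among the copies of Hsp70, Hsp70Ab took most of the reads. The table lists 6 copies, 2 at the Hsp70A locus and 4 at the Hsp70B locus (Hsp70Ba, Hsp70Bb, Hsp70Bbb and Hsp70Bc). Hsp70Ab held 313 of 370 reads of the 6 copies in library 1, 303 of 404 in library 2 and 217 of 252 in library 3, which is 84.6%, 75.0% and 86.1%. Its share over all 1026 reads was 81.2% (exact Clopper-Pearson 95% interval 78.7 to 83.5%, which covers counting error only). Hsp70Ab was the 1 copy of 6 at 1 FPKM or more. Hsp70Ba stood at 0.339, 0.696 and 0.0516 FPKM, Hsp70Bc at 0.189, 0.420 and 0.151 FPKM, and Hsp70Bb and Hsp70Bbb at means of 0.164 and 0.186 FPKM. Over the 3 libraries the ratio of Hsp70Ab to Hsp70Aa per exon length was 52.2, from 833 and 16 reads (exact 95% counting interval 32.0 to 91.8), and the log2(FPKM + 0.1) ratio of Hsp70Aa to Hsp70Ab was -4.64 ± 0.63. The copies are near-identical in sequence, and how reads that match several places were counted is not given in the sources used here. The split between copies, and the level of each, is therefore uncertain, as is the inducible sum set against the Hsc70 cognates above.

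**Figure D2:**
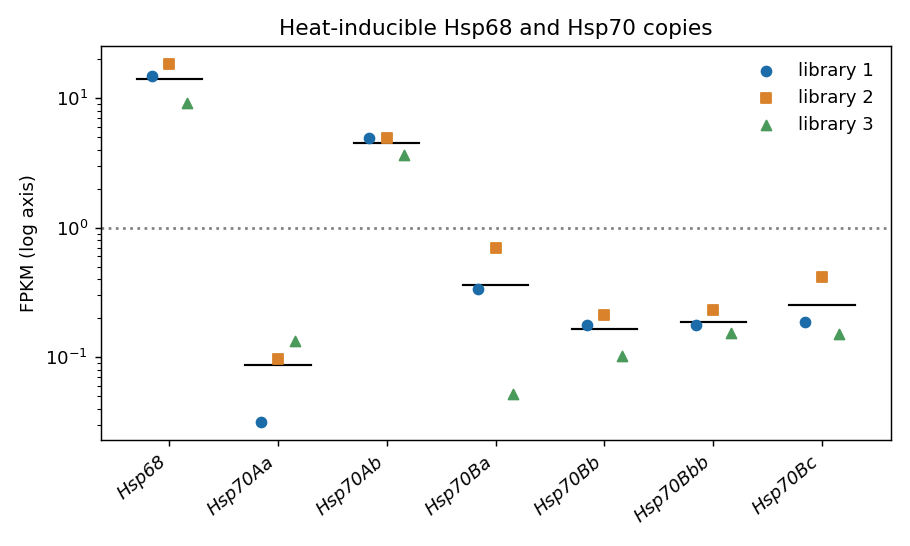
Level of Hsp68 and of the 6 listed Hsp70 copies in FPKM (log axis), with 1 symbol per library and a bar at the mean of 3 libraries. Hsp68 and Hsp70Ab lie above the dotted line at 1 FPKM in every library, and the other 5 copies lie below it.

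Hsc70-1 and Hsc70-2 were close to absent. Hsc70-1 stood at 0.0829, 0.0425 and 0.0588 FPKM, from 6, 3 and 4 reads, and Hsc70-2 stood at 0.397, 0.0177 and 0.166 FPKM, from 23, 1 and 9 reads. Their means of 0.0614 ± 0.0203 and 0.193 ± 0.191 FPKM (SD, n = 3 each) overlapped with each other and with Hsp70Aa. The order of the lowest 3 genes was thus not larger than the spread between libraries (log2 ratio of Hsc70-2 to Hsp70Aa 0.45 ± 1.35 and of Hsp70Aa to Hsc70-1 0.18 ± 0.57, exact sign-flip permutation p = 0.75 for both). Against Hsc70-4, the log2(FPKM + 0.1) ratio was -13.4 ± 0.167 for Hsc70-1 and -12.8 ± 1.03 for Hsc70-2. Of the 9 pairs of neighbours in the order, 7 did not overlap, and the other 2 were those among the lowest 3 genes.

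Annotated gene structure separated the inducible members from the cognates. Hsp68, Hsp70Aa and Hsp70Ab, and the 4 Hsp70B copies, each had 1 transcript without an intron in Ensembl release 115. Every transcript of Hsc70-1, Hsc70-2, Hsc70-3, Hsc70-5, Hsp83 and Hsp60A had an intron, and 1 of 7 transcripts of Hsc70-4 had none. In dm6 coordinates Hsp70Aa lies at chr3R:11954163-11956544 on the minus strand and Hsp70Ab at chr3R:11958535-11960909 on the plus strand, 1990 bases apart and pointing away from each other. Of these, Hsp70Ab shares 27 exon bases, 1.14% of its exon length, with CG3281 on the other strand, which stood at 10.1 ± 0.825 FPKM. Hsp68 (chr3R:24055080-24057310, minus) shares 13 bases with CG6000 and with lncRNA:CR44097, and Hsp83 (chr3L:3192969-3197059, plus) shares 15 bases with CG14966, while the exons of the other 7 members overlap no annotated gene. Hsc70-4 lies at chr3R:15242687-15246614 (plus), Hsc70-2 at chr3R:13044759-13047388 (plus), Hsc70-1 at chr3L:13974061-13977761 (plus), Hsc70-3 at chrX:11801696-11807117 (minus), Hsp60A at chrX:11108482-11112308 (plus) and Hsc70-5 at chr2R:14252598-14256192 (minus). The strand setting of the counting is not given in the sources used here.

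The 4 most abundant members varied little between libraries, and Hsp68, Hsp70Ab and the lowest members had larger relative spreads. The SD was 1.72% of the mean for Hsp60A, 1.92% for Hsp83 and 2.10% for Hsc70-4, with Hsc70-3 between the last 2, against a median of 4.49% over the 7954 genes that averaged 1 FPKM or more. Of those genes, 12.4% to 17.6% had a smaller relative SD than these 4. Hsc70-5 stood at 5.75%, Hsp70Ab at 16.4% and Hsp68 at 33.2%, the last larger than in 93.0% of those genes. Counting error alone would give 3.49% for Hsp68, so its spread was 9.51 times its counting error. The same ratio was 7.45 for Hsc70-4, 5.94 for Hsp83, 4.77 for Hsc70-5, 3.80 for Hsc70-3, 2.73 for Hsp70Ab and 1.92 for Hsp60A. For a given relative SD this ratio is larger at higher read counts, so it does not rank the genes by how much they varied. The SD of log2(FPKM + 0.1) was 0.51 for Hsp68 and 0.24 for Hsp70Ab, and without library 3 it was 0.22 and 0.0068, so the spread of both rested largely on that library. For Hsc70-2, Hsp70Aa and Hsc70-1 counting error alone came to 30.2%, 43.3% and 48.0%, and the observed values were 98.9%, 59.4% and 33.1%.

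**Figure D3:**
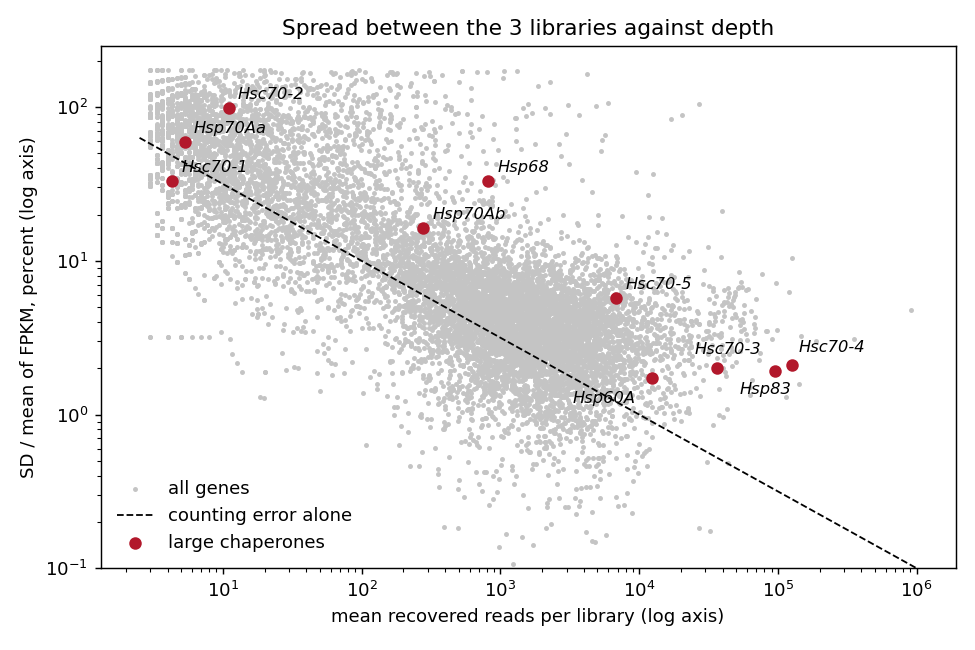
Relative SD of FPKM over the 3 libraries, as percent of the mean (log axis), against mean recovered reads per library (log axis), for genes with at least 3 reads per library on average (grey) and the 10 large chaperones (red). The dashed line is the spread that counting error alone gives. Hsp68 lies 9.51 times above its counting error, while Hsc70-1, with 13 reads in all, lies near the line.

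Library 2 was the highest and library 3 the lowest for Hsp68 and for each of the 4 Hsp70B copies, which summed to 0.880, 1.56 and 0.458 FPKM in libraries 1, 2 and 3. This order was not particular to inducible genes. Hsc70-3, Hsp60A, Hsc70-5 and the 8 subunits of the cytosolic chaperonin CCT had it too. The highest over the lowest library was 1.04 for Hsc70-3 and 2.02 for Hsp68. Of the 10 members, 4 were highest in library 2 and 6 were lowest in library 3. The spread was 1.09 times counting error for Hsp70Bb (11, 13 and 6 reads) and 0.709 times for Hsp70Bbb (11, 14 and 9 reads), so their order is uncertain. It was 4.18 times for Hsp70Ba (21, 42 and 3 reads) and 2.28 times for Hsp70Bc (12, 26 and 9 reads). The copies are near-identical, so they may not count as separate observations. Hsp70Ab was also lowest in library 3, with libraries 1 and 2 nearly equal, while Hsp70Aa was highest there. Other heat-inducible genes did not all share 1 order. DnaJ-1, a J-domain gene, stood at 89.2, 82.1 and 90.9 FPKM and stv, a BAG-domain gene, at 13.9, 11.8 and 15.6 FPKM, both highest in library 3 and lowest in library 2. Of the 5 small heat shock protein genes above 0, 3 were lowest in library 3, among them Hsp23 at 2488, 2253 and 2104 FPKM. The 2 that were highest in library 2 were Hsp67Bc at 5.74, 12.3 and 6.16 FPKM and Hsp67Ba at 187, 195 and 178 FPKM. Hsp67Ba had the same order as Hsp68. The 4 hemocyte markers summed to 32.1, 38.4 and 31.8 FPKM, with libraries 1 and 3 nearly equal. All 4 were highest in library 2, and 3 of 4 were lowest in library 3. The glue and gut sums were also highest in library 2, as was that of 4 larval muscle genes, at 44.7, 67.5 and 55.7 FPKM. The fat body sum was instead highest in library 3, at 413, 677 and 1500 FPKM, and 4 of the 5 fat body genes were highest there. Each of the glue, gut, muscle and fat body genes was lowest in library 1. None of these marker genes was at 0 in a library. In bulk tissue fewer cells of a type and less RNA per cell cannot be told apart, and the part of attached tissue in these values was not tested.

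Hsc70-2 was 1 of 5 members that were highest in library 1, with Hsc70-4, Hsp83, Hsp70Ab and Hsc70-1. The Hsp60 relatives Hsp60B, Hsp60C and Hsp60D were also highest there. Hsp60B, which spermatids need to become separate sperm, stood at 0.494, 0.122 and 0.309 FPKM, and Hsp60C, which acts in tracheal and male germline development, stood at 0.695, 0.143 and 0.240 FPKM. Hsp60D stood at 0.153, 0.0197 and 0 FPKM, from 8, 1 and 0 reads, and Hsp60B had 29, 7 and 17 reads. All these levels are far below Hsp60A, and the log2(FPKM + 0.1) ratio of Hsp60C to Hsp60A was -8.91 ± 0.89. The ratio of library 1 to library 2 was 22.4 for Hsc70-2 (23 reads and 1 read, exact 95% counting interval 3.64 to 923) and 4.87 for Hsp60C (40 and 8 reads, 2.25 to 12.1). Among the 5 testis genes can, aly, bam, Mst84Da and dj, 4 were highest in library 1, and they summed to 4.17, 0.892 and 0.600 FPKM. Mst84Da stood at 3.15, 0.538 and 0.223 FPKM, from 30, 5 and 2 reads, and dj had 26, 8 and 6 reads. The other testis genes rested on very few reads: can on 5, 0 and 1, aly on 2, 0 and 0, and bam, highest in library 3, on 6, 5 and 8. The part of such transcripts in the Hsc70-2 level was not tested. Without library 1 the mean of Hsc70-2 was 0.0916 FPKM.

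**Figure D4:**
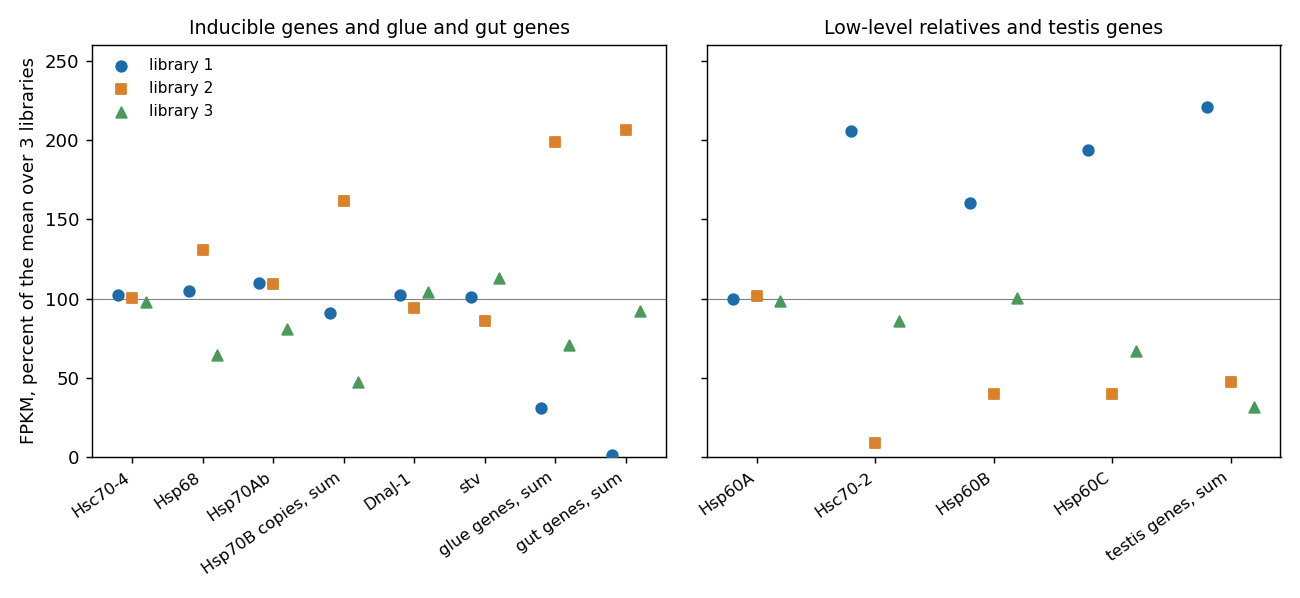
FPKM in each library as percent of the mean over 3 libraries. On the left are Hsc70-4, the inducible genes, DnaJ-1, stv and the summed glue and gut genes, and on the right Hsp60A, Hsc70-2, Hsp60B, Hsp60C and the summed testis genes. Hsc70-4 and Hsp60A stay near 100 in every library, Hsp68 and the Hsp70B copies are highest in library 2, and Hsc70-2, Hsp60B and Hsp60C are highest in library 1.

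The genes that work with the Hsp70 members were mostly expressed, at levels far under Hsc70-4. Of 18 matched J-domain, exchange-factor and adaptor genes, 16 reached 1 FPKM in each library and the same number passed the limma test. Over all genes these shares were 42.9% of those listed and 53.4% of those tested. The median level of the matched genes was 30.6 FPKM, against 0.408 FPKM over all listed genes. The highest were Droj2, a J-domain protein, at 178 ± 5.61 FPKM, Hsc70Cb, an Hsp110-type exchange factor, at 127 ± 5.30 FPKM, and the tetratricopeptide co-chaperone gene Sgt at 89.01 ± 3.82 FPKM (SD, n = 3 each). Hsc70Cb lay under Hsc70-4 with a log2 ratio of -3.81 ± 0.04. The 2 that did not pass were jdp, at 0.724, 0.796 and 0.881 FPKM, and DnaJ-60, which is listed at 0. Roe1, the mitochondrial GrpE-type exchange factor that serves Hsc70-5, stood at 32.6 ± 1.38 FPKM, with a log2 ratio of -1.47 ± 0.14 to Hsc70-5.

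All 10 listed partners and relatives of Hsp83 passed both criteria, against 42.9% and 53.4% over all genes. Their median was 89.3 FPKM. The highest was p23, a co-chaperone that holds Hsp90 in its closed state, at 432 ± 12.6 FPKM, followed by Gp93, the ER form of Hsp90, at 325 ± 6.88 FPKM and Stip1, also called Hop, which links Hsp70 to Hsp90, at 186 ± 2.42 FPKM (SD, n = 3 each). The log2 ratio to Hsp83 was -1.94 ± 0.03 for Gp93 and -2.75 ± 0.04 for Stip1. Gp93 lay close to the ER Hsp70, Hsc70-3, with a log2 ratio of -0.26 ± 0.03, and its values did not overlap with those of Hsc70-3. Trap1, the mitochondrial Hsp90, was far lower at 27.7 ± 0.454 FPKM, with a log2 ratio of -1.71 ± 0.08 to Hsc70-5.

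Among 12 genes of the chaperonins other than Hsp60A, 9 passed both criteria, against 42.9% and 53.4% over all genes. The 8 subunits of CCT, the cytosolic chaperonin that folds actin and tubulin, lay between 190 FPKM for CCT3 and 282 FPKM for CCT5, with Hsp60A, at 194 FPKM, near the low end of that range. CCT5 stood at 282 ± 12.8, CCT1 at 254 ± 13.3 and CCT8 at 244 ± 6.93 FPKM. CG11267, which encodes the lid of the Hsp60 barrel (Hsp10), stood at 175 ± 10.3 FPKM, and the 3 that did not pass were Hsp60B, Hsp60C and Hsp60D. In the ER folding list 9 of 9 genes passed, and Calr (957 ± 18.0 FPKM), ERp60 (809 ± 7.99 FPKM) and Pdi (777 ± 20.1 FPKM), which encode a lectin chaperone and a pair of disulfide isomerases, all exceeded Hsc70-3. In the mitochondrial list 6 of 6 passed, with CG11267 the highest, ClpP, a matrix protease, at 35.9 ± 2.37 FPKM and Roe1 next.

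**Figure D5:**
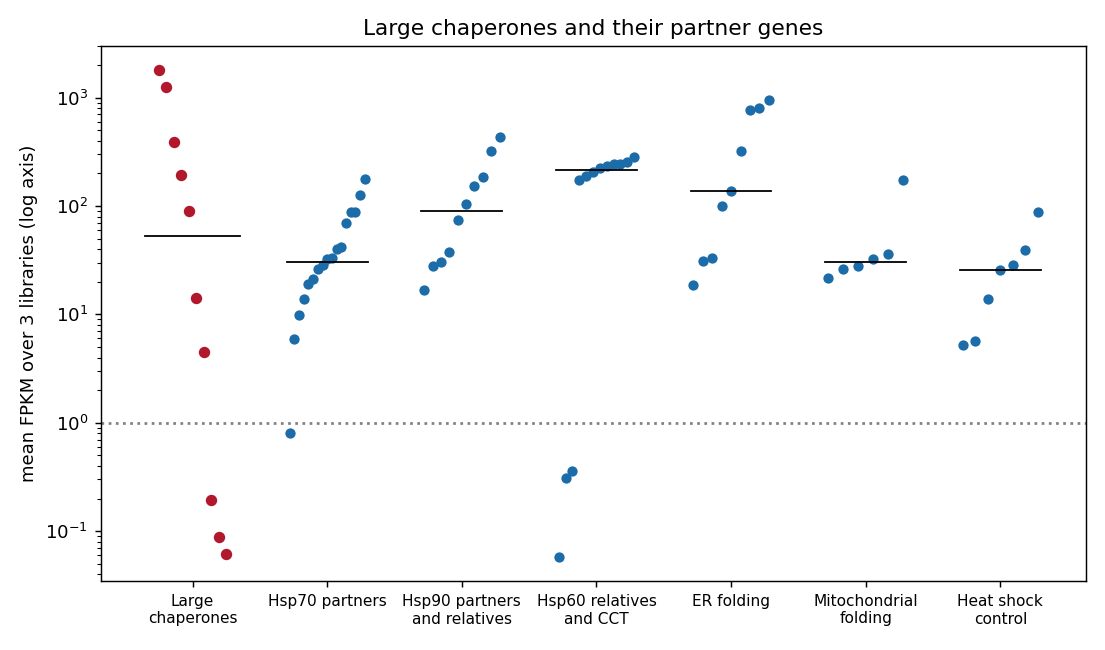
Mean FPKM over 3 libraries (log axis) of the 10 large chaperones (red) and of the genes of 6 lists of partners and related folding genes (blue), with 1 point per gene and a bar at the median of each list. Genes listed at 0 have no point but count in the median. All members of the Hsp90, ER, mitochondrial and heat shock control lists lie above the dotted line at 1 FPKM.

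The heat shock control list held regulators such as Hsf together with heat-inducible genes such as DnaJ-1 and stv. All 7 of its genes passed both criteria, against 42.9% and 53.4% over all genes. Their median was 25.5 FPKM. DnaJ-1 stood highest at 87.4 ± 4.67 FPKM, followed by Hsf, the heat shock transcription factor, at 39.1 ± 0.760 FPKM and Nelf-E, a subunit of the complex that pauses RNA polymerase, at 28.5 ± 0.421 FPKM (SD, n = 3 each). The heat shock noncoding RNA gene lncRNA:Hsromega stood at 5.63 ± 0.492 FPKM. That value came from 9477 reads over 21710 exon bases, against 8836 reads over 2910 bases for Hsf, so it depends on the length used. Of the 6 matched small heat shock protein genes 5 passed, with Hsp23 at 2281 ± 194, Hsp27 at 1177 ± 51.1 and Hsp26 at 317 ± 22.9 FPKM, while Hsp22 is listed at 0. By these means Hsp23 stood above Hsc70-4, Hsp27 just under Hsp83 and Hsp26 under Hsc70-3.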

How the data were processed

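FPKM values per gene and library were made by the authors and deposited as 1 table with 3 columns, matched to the samples by number, since the column prefix w118 is in no label. The submitters' processing notes name build dm6, alignment software STAR 2.7.6a, the counter featureCounts 1.6.0, DESeq2, FastQC 0.11.8 and CASAVA 1.8. Not given in the sources used here are the annotation, the strand setting and the treatment of multiply matching reads. Reads were recovered by multiplying FPKM by merged exon length in Ensembl release 115 (17551 genes with a length). The products were whole multiples of 1 step, within 0.01 of a read, for at least 99.7% of genes above 0 in each library.

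Levels were tested against 1 FPKM with limma 3.58.1 in R 4.3.3 on log2(FPKM + 0.1), with Benjamini-Hochberg adjustment over 13909 genes and a threshold of 0.05. This was tested on simulated data with known levels, whose spread between libraries was set smaller than that of Hsp68 and Hsp70Ab. It therefore does not check the calls of those genes. Ratios of 26 distinct pairs or sums were taken within libraries. With adjustment over them the smallest exact permutation p of 0.25 became 0.283. Differences on this scale understate those of genes near the pseudocount. Intervals cover counting error only.

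All members, all paired genes, and the 3 highest genes of each list were named. Genes such as jdp, DnaJ-60, Hsp22, lncRNA:Hsromega, the Hsp70B copies, Hsp67Ba, Hsp67Bc and stv were named after their values were seen. Members and lists were chosen with earlier results of these data known. The symbols l(2)tid and Hsp67Bb matched no row and were not analysed here.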

Additional observations from a re-analysis of the deposited data

How the results depend on the processing

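The count of 7 members above 1 FPKM was the same in each alternative run: pseudocounts of 0.01 and 1, other gene filters, an eBayes fit with trend and robust, rescaling to equal library sums, leaving out each library, detection limits of 0.5 and 2 FPKM or 1 FPKM in any library, and 10 recovered reads in each library. Rescaling moved the log2 level of the median gene by 0.93, and the levels of members with it. With 10 reads in each library, 17 of the Hsp70 partners counted, and 9 of the Hsp90 partners, since reads of unc-45 could not be recovered. Of 25 ratios of single genes, 23 kept their sign in every alternative. Leaving out 1 library at a time gave -0.28 to 1.05 for the log2 ratio of Hsc70-2 to Hsp70Aa (negative without library 1) and -0.0042 to 0.51 for that of Hsp70Aa to Hsc70-1 (negative without library 3); the cause was not tested. The log2 ratio of summed Hsc70 to summed inducible genes was 6.73 to 7.31 over the alternatives, and 6.89 with all Hsp70 copies included. Samples could not be paired between groups because the design has 1 group, and the only pairing was of genes within libraries. Depth limits the 3 lowest members, which had 13 to 33 reads in all.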
